A study of Mus musculus with 18 samples.

Results

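The low polysome fraction of Dgcr8 knockout (KO) mouse embryonic stem cells (ESCs) was compared with that of wild-type (WT) ESCs, gene by gene. The comparison used 6 of the 18 libraries of the series, 3 KO and 3 WT, and 12851 of the 51467 genes in the count table, namely those with at least 3 CPM (counts scaled to a common library total) in at least 3 libraries. WT cells were the V6.5 line and KO cells were a single Dgcr8 KO line, so that the loss of Dgcr8 and any other difference between the lines cannot be told apart. Both were grown with serum, LIF and the inhibitors PD0325901 and CHIR99021 (2i), and both were exposed to 100 ug/ml cycloheximide for 2 min before lysis. Each of 3 gradients per genotype gave a monosome fraction, a low polysome fraction (2 to 4 ribosomes per message) and a high polysome fraction (4 or more), and the fractions were read with 3′ end sequencing (QuantSeq). The replicate gradients are numbered, but nothing says that they came from separate cultures, so p-values measure the spread between gradients, which may be technical.

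DGCR8 is the RNA-binding partner of the nuclease DROSHA. Together they cut primary microRNA (miRNA) transcripts into the hairpins that DICER then turns into mature miRNAs, so cells without DGCR8 lack canonical miRNAs. The miR-290 cluster is abundant in mouse ESCs, and the miR-302 cluster is known from the later, primed epiblast state. Many of their miRNAs, known as ESC cell cycle regulating (ESCC) miRNAs, share a seed and pair with matching sites in 3′ untranslated regions (3′ UTRs). A message bound by a few ribosomes sediments in low polysomes, so its reads there depend on how much of the message the cells hold and on how many ribosomes it carries. These 2 components cannot be told apart within 1 fraction, nor can fewer cells of a type be told from less RNA per cell.

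Mature sequences of 5 members of this family are shown because the seed they share defines the sites counted below. They are from RefSeq (GRCm38.p6), on the plus strand of chromosome 7 (the miR-290 cluster) and chromosome 3 (the miR-302 cluster), and the capitals mark bases 2 to 8, the seed.
miR-291a-3p: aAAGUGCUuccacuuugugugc
miR-294-3p: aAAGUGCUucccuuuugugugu
miR-295-3p: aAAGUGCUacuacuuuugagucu
miR-302b-3p: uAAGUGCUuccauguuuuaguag
miR-302d-3p: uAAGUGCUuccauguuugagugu

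Matching 8mer sites, AGCACTTA in the message, are shown for 4 genes whose reads differed below. Each stretch lies in the 3′ UTR of GENCODE M21 (GRCm38), reads 5′ to 3′ along the message, and has the site in capitals.
Lefty1 (chr1:180938213-180938220, plus strand): actgtatgcgaAGCACTTAcatgtatagat
Cdkn1a (chr17:29100500-29100507, plus strand): gtgggtgtcaaAGCACTTAgtgggtctgac
Lats2 (chr14:57691086-57691093, minus strand): agtatggaaagAGCACTTAttttgtggata
Vim (chr2:13582651-13582658, plus strand): gaaagaagctcAGCACTTAacaactgacac

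Totals ranged from 2847570 to 3521636 counts in WT and from 3089222 to 3840124 counts in KO low polysomes, so that 3 counts, the floor used here, equalled 0.788 to 1.06 CPM. CPM below are scaled with TMM factors and given in the order of replicates 1, 2 and 3. Across genes, Spearman's rho was 0.984 to 0.986 between WT libraries, 0.977 to 0.985 between KO libraries and 0.898 to 0.91 between genotypes. Summed markers of pluripotent stem cells were 2249 to 2360 CPM in WT and 2386 to 2461 CPM in KO libraries, with all 8 genes above the floor in every library. Summed markers of primitive endoderm, trophectoderm, fibroblasts and mesendoderm were at most 28.5 CPM in any of the 6 libraries. That maximum was the fibroblast sum of KO replicate 1, against 7.34 and 11 CPM in the other KO and 12.3 to 16.8 CPM in WT libraries. Col3a1 held 28 reads in it and 0 in both other KO libraries, and Col1a2 13 and 0. Markers of 2-cell-like cells were at 0.278 to 0.9 CPM in WT and 4.45 to 6.7 CPM in KO. Elf5 of trophectoderm and Fgf5 of formative epiblast were at 0 in all 6. Neural markers (Sox1, Pax6, Nes and Tubb3) summed to 56.7 to 75.2 CPM in WT and 28.0 to 37.7 CPM in KO.

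KO replicate 1 stood apart from the other KO low polysome libraries. At 13 genes it was at least 4-fold above both of them, and at 1 gene, Manba, at least 4-fold below (on CPM + 2, a rule chosen after its values were seen). No gene met this rule in any of the other 5 libraries against its own group. Hbb-y, an embryonic globin, was at 425 CPM in KO replicate 1 against 8.33 and 7.09 CPM in replicates 2 and 3, and at 13.05, 8.37 and 43.0 CPM in WT. H19, an imprinted noncoding RNA, was at 154 CPM against 4.17 and 6.31 CPM, and at 45.5, 47.4 and 53.9 CPM in WT. The other genes above were the globins Hbb-bh1 and Hba-x, the imprinted genes Nnat, Igf2 and Dlk1, and Crabp1, Fignl2, Gm45184, Lin28a, Igfbp5 and Hes5. Over 11 erythroid genes listed after these values were seen, 10 were above the floor in KO replicate 1, and their sum was 642 CPM against 15.0 and 13.6 CPM in the other KO and 16.1 to 69.3 CPM in the WT libraries. The monosome and high polysome libraries of the same gradient did not show this, with 17.2 and 16.5 CPM of Hbb-y. A set of 16 genes of WT cells was at least 10-fold lower in KO than in WT in the other fractions. Their median was 7.06% of the WT low polysome level in KO replicate 1, against 5.8% and 7.83% in replicates 2 and 3. H19 and Lin28a belong to this set, and the median does not show their higher levels in KO replicate 1. Whether RNA of another sample entered this library, and its part in the results, was not tested, and results are given with and without this library.

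**Figure D1:**
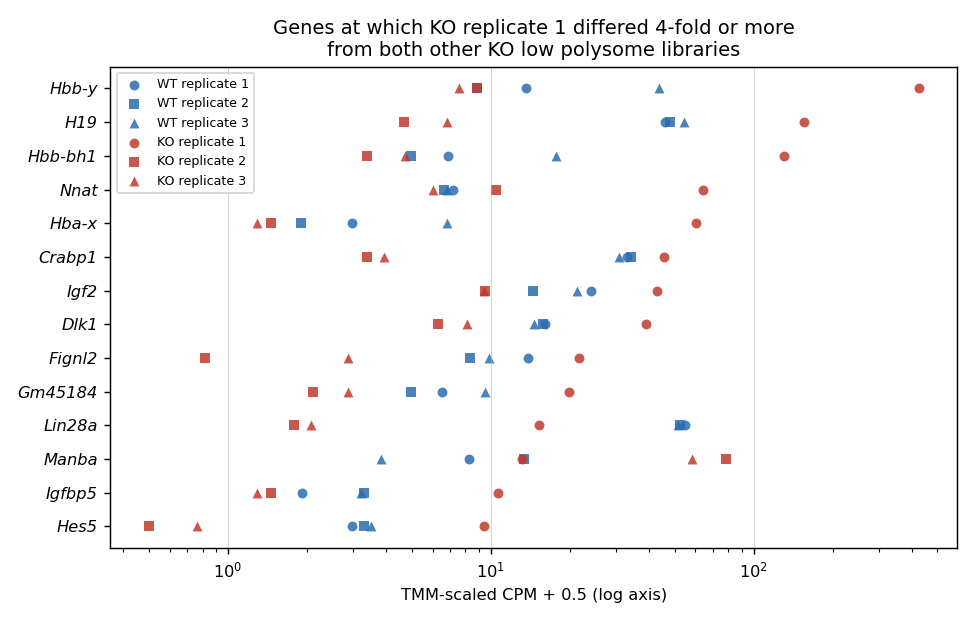
TMM-scaled CPM plus 0.5 (log axis) of the 14 genes at which KO replicate 1 was at least 4-fold from both other KO low polysome libraries, with 1 point per library (blue WT, red KO). Red circles, KO replicate 1, lie to the right of the red squares and triangles for 13 genes and to the left for Manba.

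The gene targeted in the KO line, Dgcr8 (ENSMUSG00000022718, chromosome 16, GRCm38, minus strand, protein-coding), held 147, 251 and 221 reads in WT and 127, 183 and 160 reads in KO low polysomes, or 51.8, 70.0 and 66.5 CPM against 39.0, 58.6 and 42.0 CPM. The groups overlapped, and the log2 change was -0.45 (SE 0.17, adjusted p = 0.0223), under the fold threshold. It was -0.35 without KO replicate 1. In monosomes the change was -0.56, and in high polysomes Dgcr8 was called lower (-1.01, limma-voom adjusted p = 0.000276). The 3′ reads of Dgcr8 therefore remained in the libraries labelled KO, and a deletion away from the 3′ end would not be seen by them.

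Of the 12851 genes, 1462 (11.4%) passed both thresholds as higher and 1754 (13.6%) as lower in KO low polysomes. The thresholds were 0.05 for the adjusted p and 1 for the log2 change in either direction. Without KO replicate 1, 1534 (11.9%) were higher and 1679 (13.1%) lower, and 2933 of the 3216 calls were kept in the same direction. The median log2 change over all genes was 0.004 with all libraries and 0.009 without KO replicate 1. A change over 2 on the log2 scale was seen for 388 genes called higher and 522 called lower. The same fit called 1083 genes (8.43%) higher and 1237 (9.63%) lower in monosomes, and 1946 (15.1%) higher and 2303 (17.9%) lower in high polysomes. Of the low polysome calls, 705 were called higher and 571 lower in all 3 fractions, and 219 higher and 323 lower calls were made in low polysomes without a call in the other fractions. For 45 of these 542 genes the difference from the other fractions was itself called. Just 2 of the genes called in low polysomes were called in the opposite direction in another fraction. Xrcc4, a DNA ligase cofactor, had a log2 change of 1.90 in low polysomes and -1.56 in monosomes, and C2, a complement component, had -1.22 in low and 1.01 in high polysomes.

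**Figure D2:**
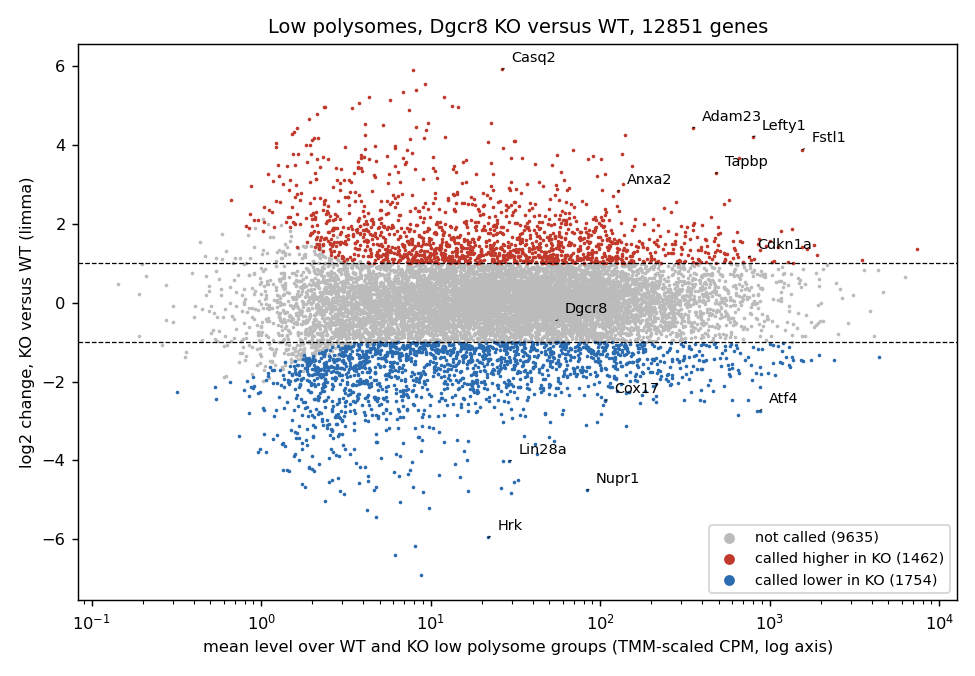
Log2 change of KO versus WT low polysomes (limma) against the mean level of the groups in TMM-scaled CPM (log axis), with 1 point per gene and dashed lines at a 2-fold change. The 1462 genes called higher (red) and 1754 called lower (blue) lie at low and high mean levels, and Dgcr8 lies between the dashed lines.

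The genes named first are the 10 with the largest change in each direction that were called with and without KO replicate 1, had a mean count of 50 or more and did not overlap between the groups. Lefty1, a secreted inhibitor of Nodal, was at 94.5, 80.9 and 66.8 CPM in WT and at 1228, 1292 and 2024 CPM in KO (log2 change 4.21, SE 0.17, adjusted p = 1.1e-22). Fstl1, a secreted follistatin-like glycoprotein, was at 205, 210 and 167 CPM in WT and at 2153, 2795 and 3837 CPM in KO (3.89, SE 0.14, adjusted p = 6.34e-24). Both were lowest, of the KO libraries, in replicate 1, and without it their changes were 4.34 and 4.09. Adam23, a catalytically inactive membrane protein of the ADAM family, was at 38.4, 39.1 and 19.9 CPM in WT and at 684, 661 and 672 CPM in KO (4.44, SE 0.17, adjusted p = 2.47e-23). Porcn, the acyltransferase that Wnt ligands need for secretion, was at 14.1, 18.7 and 9.93 CPM in WT and at 269, 249 and 280 CPM in KO (4.25, SE 0.21, adjusted p = 6.48e-20).

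The other 6 higher genes were below 5 CPM in every WT library. Casq2, the calcium-binding protein of the cardiac sarcoplasmic reticulum, held 2, 2 and 3 reads in WT libraries and rose to 49.2, 47.4 and 59.9 CPM in KO (log2 change 5.92, SE 0.57). Foxd1, a forkhead transcription factor, was at 1.39 to 2.41 CPM in WT and at 37.2 to 49.4 CPM in KO (4.56, SE 0.45). Tspan1, a tetraspanin, changed by 4.11, Lrrn2, a leucine-rich repeat membrane protein, by 4.10, Sema6a, a transmembrane semaphorin, by 4.08, and C1qtnf9, a secreted C1q family protein, by 3.92. These 4 were at 1.2 to 4.52 CPM in the WT and at 37.5 to 67.3 CPM in the KO libraries. All 10 were also called higher in monosomes and in high polysomes.

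On the lower side, Nupr1, a stress-induced chromatin protein, was at 170, 148 and 166 CPM in WT and at 6.76, 4.49 and 6.31 CPM in KO (log2 change -4.76, SE 0.26, adjusted p = 2.83e-18). Chac1, an enzyme that degrades glutathione, was at 47.2, 52.4 and 72.5 CPM in WT and at 2.15, 0.641 and 3.68 CPM in KO (-4.83, SE 0.46, adjusted p = 1.22e-11). Both are targets of the stress-induced transcription factor ATF4, and their group is described below. Hrk, a BH3-only activator of apoptosis, was at 32.1, 39.3 and 57.8 CPM in WT, and each KO library held it at under 1 CPM (-5.96, SE 0.68, adjusted p = 1.02e-09). Gpx3, a secreted glutathione peroxidase, was at 53.9, 42.1 and 55.1 CPM in WT and at 1.84, 1.92 and 1.58 CPM in KO (-4.71, SE 0.42, adjusted p = 1.84e-12).

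Rhox5, a homeobox gene of the X-linked Rhox cluster, fell by 4.02 (log2, SE 0.35), from 42.7 to 56.3 CPM in WT to 1.6 to 3.94 CPM in KO libraries. Lin28a, which binds let-7 precursors and blocks their maturation, was at 54.3, 51.9 and 51.2 CPM in WT and at 14.8, 1.28 and 1.58 CPM in KO, so KO replicate 1 was the highest KO library. Its log2 change was -4.02 (SE 0.40, adjusted p = 2.66e-11) and -5.06 without that replicate. Tunar, a gene annotated here with a coding sequence of 144 nt, was at 64.9, 64.7 and 58.4 CPM in WT and at 2.77, 2.56 and 2.63 CPM in KO (-4.49, SE 0.33). E330020D12Rik changed by -4.77, 1500009L16Rik by -4.54 and Sapcd1 by -3.98, from 28.5 to 64.1 CPM in WT to 0.615 to 3.69 CPM in KO libraries. Of the 10 lower genes, 5 fell in the shortest and 4 in the second decile of coding length. Of the 10 higher genes, 0 and 1 did.

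**Figure D3:**
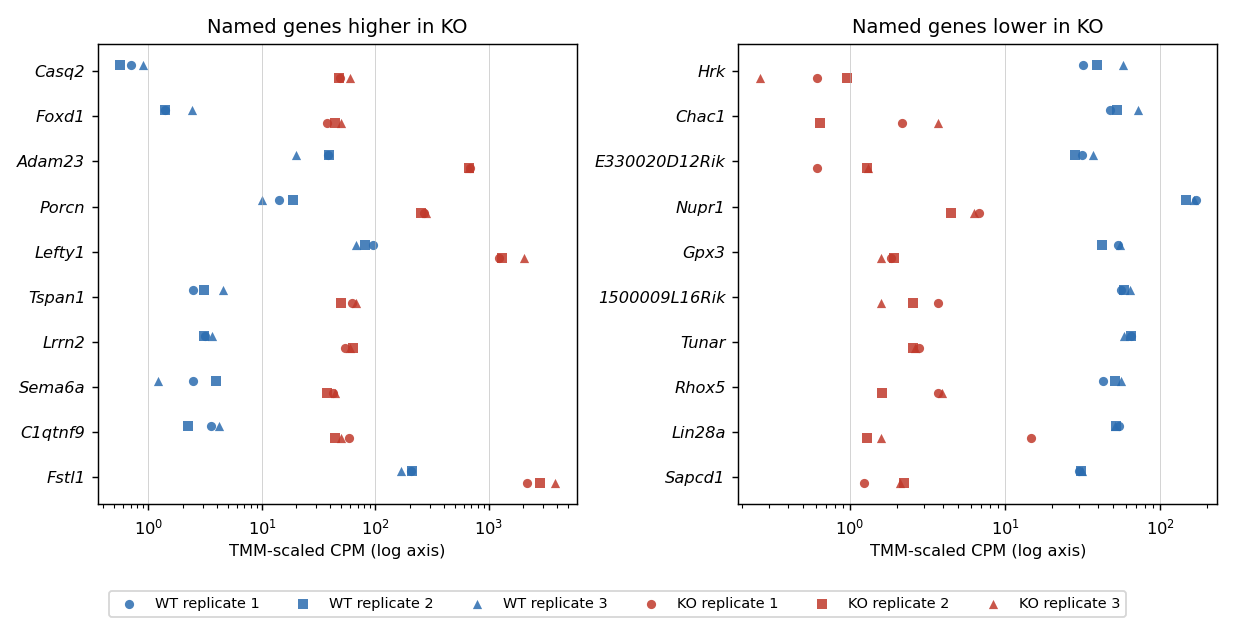
TMM-scaled CPM (log axis) of the 10 higher (left) and 10 lower (right) named genes, with 1 point for each of 3 WT (blue) and 3 KO (red) low polysome libraries. The groups do not overlap, as the rule for naming required, and KO replicate 1 (red circle) lies nearest to WT for Lin28a.

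Differences in low polysomes were small among the genes that make and use miRNAs. Of 25 tested, 0 were called by limma-voom, edgeR or DESeq2, against 11.4% of all genes called higher and 13.6% lower by limma-voom. At an unadjusted p under 0.05 with no fold threshold, 6 were higher and 4 lower. The median log2 change was -0.02. In high polysomes, 3 were called higher, among them Ago1 (1.18) and Tnrc6a (1.34), and 1 lower, Dgcr8 (-1.01). The ends of the range were Ago2, the slicing Argonaute, at -0.69 (adjusted p = 1.1e-05) and Tnrc6b, an Argonaute partner, at 0.90, which was called higher without KO replicate 1. Ago1, another Argonaute, was at 76.5, 75.9 and 87.0 CPM in WT and at 127, 131 and 147 CPM in KO, without overlap (0.76, SE 0.14, adjusted p = 1.04e-05). Tnrc6a, an Argonaute partner, was at 0.70 (SE 0.13, adjusted p = 1.5e-05). Drosha (0.39) and Dicer1 (0.40), the nucleases of the pathway, and Xpo5, the export factor (-0.39), differed by less than the fold threshold, and Ddx6, an RNA helicase of the repression pathway, was at 195 ± 8.02 CPM in WT and 192 ± 9.42 CPM in KO (mean ± SD, n = 3).

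Among transcripts listed as hosts of miRNAs, 1 of 13 tested (7.69%) was called higher and 3 (23.1%) lower, against 11.4% and 13.6% of all genes. Mir17hg, the host of the miR-17 cluster, rose from 10.9, 23.2 and 20.8 CPM to 89.1, 136 and 96.7 CPM (log2 change 2.55, SE 0.24, adjusted p = 1.3e-11). Mirt1 (-1.91, SE 0.64) and Rian (-1.09) were called lower, and Rian was not called without KO replicate 1 (-0.96). Whether Mirt1 hosts a miRNA was not checked, and its call is part of the share called lower. Mirt1 held 3, 2 and 3 reads in KO libraries, at or under the floor of 3 counts. H19, the host of miR-675, was called lower (-1.63, SE 0.48, adjusted p = 0.00399), although KO replicate 1 lay above all WT libraries. Without it, H19 was at -3.19, and with edgeR and DESeq2 on all libraries its estimate turned positive (0.15 and 0.14). Meg3, a host transcript of the Dlk1-Dio3 region, was at 697 ± 109 CPM in WT and 1173 ± 340 CPM in KO (0.72, SE 0.18, adjusted p = 0.00113, n = 3).

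Of 24 tested inhibitors of the G1 to S transition and other described ESCC miRNA targets, 7 (29.2%) were called higher and 2 (8.33%) lower, against 11.4% and 13.6% of all genes, with a median log2 change of 0.55 against 0.00. Cdkn1a, the cyclin-dependent kinase inhibitor p21, rose from 544, 428 and 422 CPM to 1063, 1052 and 996 CPM (1.17, SE 0.11, adjusted p = 4.16e-12). Lats2, a kinase of the Hippo pathway, rose from 12.3, 15.1 and 18.97 CPM to 43.0, 59.6 and 57.5 CPM (1.77, SE 0.20, adjusted p = 4.71e-10). Rbl2, a retinoblastoma family protein, rose by 1.21 (SE 0.23), from 9.23 ± 2.06 to 21.4 ± 2.35 CPM. Ei24, an endoplasmic reticulum protein, rose by 1.35 (SE 0.12). Rb1 was called (1.02), but not without KO replicate 1. The members called lower were Pfkp, the platelet type phosphofructokinase (-1.91, SE 0.15), and Cdkn2c, the inhibitor p18 (-3.09, SE 0.64).

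Seed matches were counted across all genes with an annotated 3′ UTR, in 1 transcript per gene. Among 11611 such protein-coding genes, 11.9% were called higher and 12.3% lower. Of 2170 genes with a 7mer or 8mer match to the seed, 362 (16.7%) were called higher and 135 (6.22%) lower, with a median change of 0.23. Of 370 genes with an 8mer, 73 (19.7%) were higher and 12 (3.24%) lower, and the median was 0.36. Genes without a match had 10.8% higher and 13.7% lower and a median of -0.01. These sets differ in 3′ UTR length, with medians of 2290 and 2612 nt for genes with any match and with an 8mer, and 762 nt for genes without. Within 5 classes of 3′ UTR length, the median change was higher with a match than without in each class. In the longest class it was 0.27 for 1067 genes with and 0.16 for 1253 genes without a match, and in the middle class it was 0.20 and 0.04. In the shortest class, with just 51 genes with a match, the share called higher was 7.84% with and 8.44% without. Without KO replicate 1 the median with a match was 0.24 and with an 8mer 0.38.

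Of cyclins, their kinases and E2F factors, 3 of 22 tested (13.6%) were called higher and 2 (9.09%) lower, shares near those of all genes (11.4% and 13.6%). Ccnd1, a D-type cyclin, rose from 107, 97.9 and 114 CPM to 318, 272 and 331 CPM (log2 change 1.53, SE 0.12). Cdk6, a partner of D-type cyclins, rose from 15.5, 20.9 and 24.4 CPM to 86.4, 95.2 and 105 CPM (2.24, SE 0.16). Ccnd2 rose from 5.68 ± 1.23 CPM to 143, 41.0 and 46.8 CPM, so its change of 3.51 (SE 0.42) was 2.95 without KO replicate 1. In contrast, Ccnd3 fell from 792, 707 and 720 CPM to 415, 309 and 327 CPM (-1.09, SE 0.12). E2f1, a transcription factor of the G1 to S transition, fell from 376, 368 and 428 CPM to 147, 130 and 143 CPM (-1.48, SE 0.13). It was at -0.75 in monosomes and 0.14 in high polysomes, and the difference of low polysomes from their mean was called (-1.17, adjusted p = 5.79e-06). Ccne1, cyclin E1, changed by 0.54 (SE 0.12).

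The list for naive and general pluripotency holds transcription factors, receptor chains, ligands and others, with 26 genes tested. Of these, 5 (19.2%) were called higher and 2 (7.69%) lower, against 11.4% and 13.6% of all genes. Sox2 was at 399 ± 14.2 CPM in WT and 651 ± 39.3 CPM in KO (log2 change 0.71, SE 0.10), Nanog at 174 ± 8.43 and 217 ± 42.5 CPM (0.31, SE 0.12), Esrrb at 187 ± 2.35 and 261 ± 9.8 CPM (0.48, SE 0.11) and Klf4 at 855 ± 110 and 533 ± 54.6 CPM (-0.68, SE 0.12), with n = 3 in each. Pou5f1, which encodes OCT4, was at 60.6 ± 12 and 44.9 ± 1.68 CPM (-0.41, SE 0.16). Zfp42, which encodes REX1, did not pass the test (0.13, SE 0.13, adjusted p = 0.431). Called higher were Klf2 (1.58), a naive factor, and Il6st (2.09), the signal-transducing chain of the LIF receptor. Lifr, its other chain, rose by 1.06 and Gdf3, a TGF-beta family ligand, by 1.09. Manba, a lysosomal enzyme in this list, was called higher (2.44, and 3.22 without KO replicate 1), at 7.76, 12.8 and 3.31 CPM in WT and 12.6, 77.9 and 57.5 CPM in KO, with overlap. Dppa3, a maternal factor of the oocyte and early embryo, fell from 64.2, 53.6 and 63.8 CPM to 5.84, 12.2 and 10.51 CPM (-2.70, SE 0.21), and Tcl1, an AKT coactivator, fell by 1.47.

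Of 16 formative and germ layer genes tested, 6 (37.5%) were called higher and 2 (12.5%) lower, against 11.4% and 13.6% of all genes, and 5 and 4 without KO replicate 1. Foxd1, above, Lef1 (1.75) and Foxd3 (1.42), transcription factors, were higher. Pou3f1, a POU factor of the formative epiblast, fell by 2.20 (SE 0.37), Sox1, a neural factor, by 1.49 (SE 0.22), and Otx2 did not pass the test (0.12, adjusted p = 0.628). Sox3 was called (1.5) on the strength of KO replicate 1, at 15.4 CPM against 5.77 and 2.1 CPM, and was at 0.81 without it. Of 8 primitive endoderm genes, Amn was called higher (12.5%) and Lama1 (-2.06), Dab2 (-1.93) and Col4a1 (-1.02) lower (37.5%). Amn and Dab2 were not called with DESeq2. Gata2 and Ascl2 were called lower among 7 trophectoderm genes (28.6%), and Col1a1 among 3 fibroblast genes (33.3%), against 13.6% of all genes. Col1a1 was at 4.92 CPM in KO replicate 1 and at most 0.32 CPM in the other KO libraries. The Col1a1 call was lost with edgeR and with DESeq2 (-1.27 and -1.29). Of 12 listed genes of 2-cell-like cells, 4 passed the filter, and Zscan4c, Tmem92 and Tcstv1 were called higher (75%, against 11.4% of all genes). Each was at most 2.47 CPM in the WT low polysome libraries. Genes this low in WT pass the filter mainly by being high in KO, so this share cannot be weighed against all genes. Zscan4c held 21 reads over the KO and 1 read over the WT libraries, a ratio of 20.1 (95% exact interval 3.23 to 831, counting error only).

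In the LIN28 and let-7 axis, the paralogs moved in opposite directions. Lin28b was at 1.06, 0.837 and 1.2 CPM in WT and rose to 12.3, 13.1 and 9.72 CPM in KO (log2 change 3.32, SE 0.49, adjusted p = 3.06e-07), while Lin28a fell as described. Of other members of this list, Hras, a small GTPase, fell by 2.17 (SE 0.19) and Hmga1, a chromatin protein, by 1.72 (SE 0.23). Hmga2, a described let-7 target, was not called (0.21, adjusted p = 0.406). It was at 43.0 CPM in KO replicate 1, against 21.5 and 20.5 CPM in the other KO and 20.8 to 25.6 CPM in WT libraries. Without KO replicate 1 its change was -0.12, and in high polysomes it was called lower (-1.01). In all, 1 of 14 members of this list (7.14%) was called higher and 3 (21.4%) lower, against 11.4% and 13.6% of all genes. In the MYC network, 1 of 14 (7.14%) was higher and 2 (14.3%) were lower. The higher gene was Mxd4, a MYC antagonist (1.09), and the lower genes were Mycl (-2.17) and Odc1, the ornithine decarboxylase (-1.53). Mycn was at 39.2 ± 2.41 CPM in WT and 65.1 ± 8.6 CPM in KO (0.73, SE 0.17).

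Of 18 tested germline genes that DNA methylation silences in somatic cells, 8 (44.4%) were called lower and 2 (11.1%) higher, against 13.6% and 11.4% of all genes, with a median of -1.04, and 9 and 1 without KO replicate 1. Xlr3a, an X-linked lymphocyte-regulated gene, held 120 reads over the WT and 0 over the KO libraries, which makes it at least 41.8-fold lower against a floor of 3 counts over the group. Rhox5 is described above, and Xlr3c fell by 2.69 (SE 0.63). Of 26 listed genes, 18 passed the filter. Genes as low in KO as Xlr3a pass it mainly through WT, so the share called lower cannot be weighed against all genes. The Xlr3 genes are near-identical copies, so their counts are uncertain. Dazl, an RNA-binding protein of germ cells, was below the fold threshold (-0.78). Of 15 DNA methylation enzymes, Tdg, a glycosylase, was called lower (-1.64), or 6.67% of the list. Dnmt3a, Dnmt3b and Dnmt3l had changes of 0.80, -0.35 and -0.27. Of 20 polycomb genes, Phf19 (-1.57) and Cbx7 (-1.04) were called lower (10%), the latter not without KO replicate 1, and Ezh2 was at -0.32.

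Of 30 imprinted genes tested, 9 (30%) were called lower and 4 (13.3%) higher, against 13.6% and 11.4% of all genes, and 11 and 3 without KO replicate 1. Sgce, Peg12 and Usp29 fell by 2.51 (SE 0.70), 1.96 (SE 0.38) and 1.94 (SE 0.65). In KO libraries Sgce held 3, 3 and 0 reads and Usp29 2, 1 and 2, at or under the floor of 3 counts. Ndn was called higher (1.95), at 4.58, 0.558 and 2.11 CPM in WT and 13.8, 3.52 and 6.83 CPM in KO, with overlap. Igf2, a growth factor, held 42.4 CPM in KO replicate 1 and 8.97 and 8.93 CPM in replicates 2 and 3, against 23.6, 13.9 and 20.8 CPM in WT. Its change was -0.33 with all libraries and -1.05, called lower, without KO replicate 1. Nnat was called higher with all libraries (1.18), and was at 0.17 without KO replicate 1. Uty, a Y-linked gene, was called lower (-1.27) but not without KO replicate 1 (-0.79), and the Y-linked Ddx3y (0.41) and Eif2s3y (0.35) were not called.

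Targets of ATF4 and of the integrated stress response, which adjusts amino acid supply and protein synthesis, gave the largest share of lower calls among the lists. Of 44 tested, 27 (61.4%) were called lower and 0 higher by limma-voom, with the same counts by edgeR and DESeq2 and 2 higher at an unadjusted p under 0.05, against 13.6% of all genes called lower. The median log2 change was -1.18. Without KO replicate 1, 26 were lower. Atf4 itself fell from 1658, 1476 and 1427 CPM to 227, 229 and 227 CPM (-2.74, SE 0.11, adjusted p = 1.1e-22). Its change was -1.06 in monosomes and -3.25 in high polysomes. Trib3, a pseudokinase that restrains ATF4, fell from 80.7, 80.6 and 87.0 CPM to 11.4, 9.93 and 13.9 CPM (-2.80, SE 0.18). Ddit3, which encodes CHOP, fell from 40.9, 48.0 and 65.3 CPM to 14.4, 13.5 and 16.6 CPM (-1.76, SE 0.23), and Asns, the asparagine synthetase, from 174, 186 and 203 CPM to 79.6, 82.0 and 104 CPM (-1.09, SE 0.13).

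Of other members, Mthfd2, a mitochondrial enzyme of one-carbon metabolism, fell by 2.24 (SE 0.14, adjusted p = 1.15e-16) and Phgdh, the first enzyme of serine synthesis, by 2.47 (SE 0.43). Vegfa, an angiogenic growth factor in this list, fell by 2.59 (SE 0.16), and Atf3, a stress-induced transcription factor, by 2.22 (SE 0.46). Of 21 aminoacyl-tRNA synthetases, a group that overlaps with this list, 5 (23.8%, against 13.6% of all genes) were called lower by limma-voom. By limma-voom 0 were called higher, by edgeR 1 and by DESeq2 0, and 1 was higher at an unadjusted p under 0.05. Cars, Nars and Aars fell by 1.37, 1.24 and 1.20, Tars was called lower too, and Lars (-1.07) was not called without KO replicate 1. The median of the synthetases was -0.65.

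The motif TGATGCAA, the core of the element that ATF4 dimers are known to bind, was searched on both strands of RefSeq promoters, from 250 bases before to 50 bases after the start (GRCm38.p6). Of 9620 tested genes with a promoter in the table, 67 (0.696%) had it. It was present in 9 of 35 genes of the list (25.7%), in 7 of 23 called lower (30.4%) and in 2 of 12 not called (16.7%). Genes entered this list as known targets, so the comparison with all genes is a description. The sequences of 3 genes with a large change are shown, with the motif in capitals and read along the strand that carries it.
Chac1 (chr2:119351049-119351056, minus strand): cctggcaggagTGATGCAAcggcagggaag
Nupr1 (chr7:126625573-126625580, plus strand): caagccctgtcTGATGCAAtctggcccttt
Atf3 (chr1:191183436-191183443, plus strand): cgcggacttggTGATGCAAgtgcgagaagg

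Of 27 tested genes of the p53 response and the BCL2 family, 3 (11.1%) were called higher and 5 (18.5%) lower, near the shares of all genes (11.4% and 13.6%), and 3 and 3 without KO replicate 1, where Bbc3 and Bik were no longer called. Pmaip1, which encodes the BH3-only protein NOXA, rose from 15.5, 12.8 and 17.8 CPM to 62.1, 83.3 and 70.4 CPM (log2 change 2.22, SE 0.20), and Perp, a p53-induced membrane protein, from 18.7, 10.9 and 15.1 CPM to 62.7, 67.9 and 68.3 CPM (2.20, SE 0.19). Eda2r, a p53-induced receptor, rose by 1.30 and Aen, a p53-induced nuclease, fell by 1.13. Trp53 (0.28, adjusted p = 0.099), Mdm2 (-0.13, adjusted p = 0.416) and Bcl2l11, which encodes BIM (0.13, adjusted p = 0.506), did not pass the test.

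Antigen processing and MHC class I genes were higher almost throughout. Of 15 tested, 14 (93.3%) were called higher and 0 lower by limma-voom, against 11.4% and 13.6% of all genes, with a median of 1.76, and 12 without KO replicate 1, where H2-K1 and Calr were no longer called. edgeR and DESeq2 called 14 and 12 higher and 0 lower, and 0 were lower at an unadjusted p under 0.05. B2m, the light chain of MHC class I, rose from 62.1, 65.8 and 60.2 CPM to 148, 209 and 189 CPM (log2 change 1.52, SE 0.14). The peptide transporter subunits Tap1 and Tap2 rose by 1.76 (SE 0.28) and 3.66 (SE 0.42), Tap2 from 4.23, 5.3 and 2.71 CPM to 29.8, 67.9 and 68.0 CPM. H2-M3, a nonclassical class I gene, rose by 3.39 (SE 0.55). Psmb8, an immunoproteasome subunit, held 161 reads over the KO and 2 over the WT libraries, a ratio of 77.1 (95% exact interval 21 to 642, counting error only). Erap1, the aminopeptidase that trims peptides, held 187 and 3 reads, a ratio of 59.7 (20.1 to 292). Genes this low in WT pass the filter mainly by being high in KO, so the share called higher cannot be weighed against all genes. Class I genes have near-identical copies, so their counts are uncertain.

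Among genes of RNA sensing and the interferon response, 8 of 16 were called higher and 0 lower by limma-voom and by DESeq2, and 9 and 0 by edgeR, with 1 lower at an unadjusted p under 0.05. The share of 50% called higher compares with 11.4% of all genes, and the median was 1.02. Ddx58, which encodes the RNA sensor RIG-I, rose from 7.76, 5.3 and 8.43 CPM to 38.1, 33.0 and 29.95 CPM (2.24, SE 0.23). Zbp1, a nucleic acid sensor, was at 0.353, 0.558 and 0.903 CPM in WT and at 14.8, 10.6 and 9.72 CPM in KO (3.97, SE 0.54). Of 25 listed genes, 16 passed the filter. Genes as low in WT as Zbp1 pass it mainly by being high in KO, so the share of 50% cannot be weighed against all genes. Ifitm1 and Ifitm3, interferon-induced membrane proteins, rose by 1.80 and 1.46, to 993 ± 187 and 2682 ± 353 CPM (n = 3). Mavs, the adaptor of RIG-I, did not pass the test (0.32, adjusted p = 0.179).

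Genes of the Nodal and SMAD pathway were called higher in 8 of 22 cases by limma-voom and edgeR and in 7 by DESeq2, or 36.4% by limma-voom against 11.4% of all genes. By all 3 tools 0 were called lower, with 1 lower at an unadjusted p under 0.05, and the median was 0.64. Besides Lefty1, Nodal rose from 201, 139 and 155 CPM to 445, 370 and 492 CPM (log2 change 1.42, SE 0.13, adjusted p = 7.12e-12). The receptors Tgfbr1 and Tgfbr2 each rose by 1.34, and the targets Id2 and Id3 by 1.35 and 1.92. Of 16 Wnt genes, 6 (37.5%, against 11.4% of all genes) were called higher and 0 lower by limma-voom, edgeR and DESeq2, with 3 lower at an unadjusted p under 0.05, and 1 was called lower without KO replicate 1 (Dkk1, a secreted inhibitor). Notum, a secreted inhibitor of Wnt, rose from 21.2, 15.3 and 9.93 CPM to 132, 206 and 224 CPM (3.64, SE 0.22, adjusted p = 2.58e-17), Sp5, a Wnt-induced factor, by 3.51 (SE 0.52), and Axin2, a feedback inhibitor, by 1.27 (SE 0.22). Of 13 FGF and ERK genes, 0 were called higher by limma-voom, 1 by edgeR and 0 by DESeq2, with 3 higher at an unadjusted p under 0.05. The 2 called lower (15.4%, against 13.6% of all genes) were Spry2 (-1.32, SE 0.15) and Spry1 (-1.60, SE 0.69), both feedback inhibitors. Fgf4 was at 1116 ± 111 CPM in WT and 1209 ± 146 CPM in KO (0.11, adjusted p = 0.384).

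Of 19 genes of mesenchymal and epithelial state tested, 6 (31.6%) were called higher and 1 (5.26%) lower, against 11.4% and 13.6% of all genes. Without KO replicate 1, 5 were higher and 1 lower. Vim, the intermediate filament vimentin, rose from 24.0, 20.9 and 22.6 CPM to 108, 64.1 and 111 CPM (log2 change 2.03, SE 0.21). Snai1, a repressor of epithelial genes, rose by 2.79 (SE 0.37), Cdh2, N-cadherin, by 2.66 (SE 0.43), and Itga5, an integrin chain, by 1.93 (SE 0.22). The epithelial gene Epcam rose as well (1.49, SE 0.13), Cldn6, a claudin, fell by 1.81, and Cdh1, E-cadherin, was at 0.83 (SE 0.12). Annexins, which bind membranes in the presence of calcium, split. Anxa2 rose from 26.1, 33.2 and 32.5 CPM to 281, 184 and 203 CPM (2.83, SE 0.17), Anxa3 by 4.95 (SE 0.62) and Anxa4 by 1.31 (SE 0.23), whereas Anxa6 fell from 31.0, 18.4 and 26.2 CPM to 3.07, 2.88 and 3.68 CPM (-2.86, SE 0.33). Of 16 actin cytoskeleton and contractile genes, 2 were higher (Casq2 and Tagln) and 2 lower (Des and Cnn2, the latter not with edgeR or DESeq2). Each count is 12.5%, against 11.4% higher and 13.6% lower of all genes.

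Of 20 cholesterol genes, 4 (20%, against 13.6% of all genes) were called lower and 0 higher by limma-voom. By edgeR and DESeq2 0 were higher, with 2 higher at an unadjusted p under 0.05. The median was -0.46. Pmvk and Mvd, enzymes of the mevalonate pathway, fell by 1.29 (SE 0.13) and 1.12 (SE 0.14), Lss by 1.03 and Insig1 by 1.11, the last not without KO replicate 1. Of 18 glycolytic genes, Aldoc was called higher (1.19) and Pfkp and Eno2 lower, the latter not without KO replicate 1. The shares were 5.56% higher and 11.1% lower, against 11.4% and 13.6% of all genes. Hk2 was at -0.38 and Ldha at -0.21. Of 7 mitochondrially encoded messages, 0 were called by limma-voom, edgeR or DESeq2, and 2 were higher and 1 lower at an unadjusted p under 0.05, with changes from -0.85 to 0.74.

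**Figure D4:**
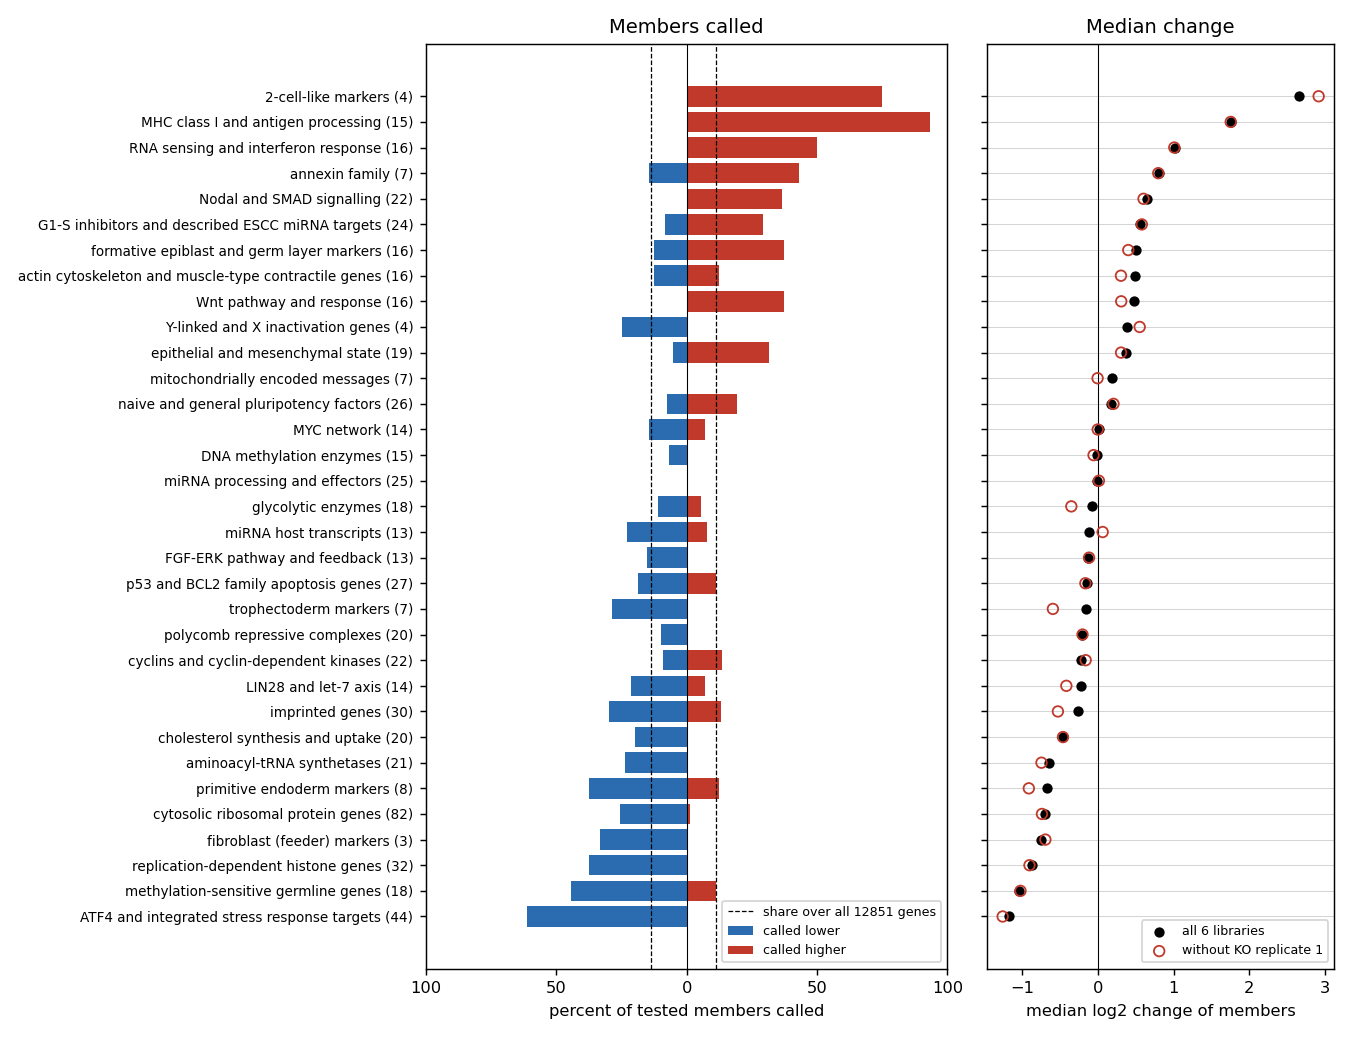
For each of 33 gene lists (number of tested members in brackets), the percent of members called lower (blue, left) and higher (red, right) with the shares over all 12851 genes as dashed lines, beside the median log2 change with all libraries (black) and without KO replicate 1 (red circles). The list of ATF4 targets has 61.4% called lower and the MHC class I list 93.3% called higher.

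Many messages for small proteins were lower in KO low polysomes. Among protein-coding genes split into deciles of coding length, the shortest decile (75 to 522 nt, 1182 genes) had 500 genes (42.3%) called lower and 55 (4.65%) higher, with a median log2 change of -0.84. In the second decile (525 to 732 nt) the median was -0.22, with 219 (18.5%) lower and 92 (7.78%) higher. Over all protein-coding genes, 12.4% were called lower and 11.9% higher. From the fourth decile on (951 nt and longer), more genes were called higher than lower in each decile, and medians ran from 0.09 to 0.19. The pattern differed by fraction. In monosomes medians stayed between -0.13 and 0.02, and in high polysomes they were -1.13 for the shortest and 0.65 for the longest coding sequences. Without KO replicate 1 the shortest decile had a median of -0.84, with 483 lower and 61 higher.

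**Figure D5:**
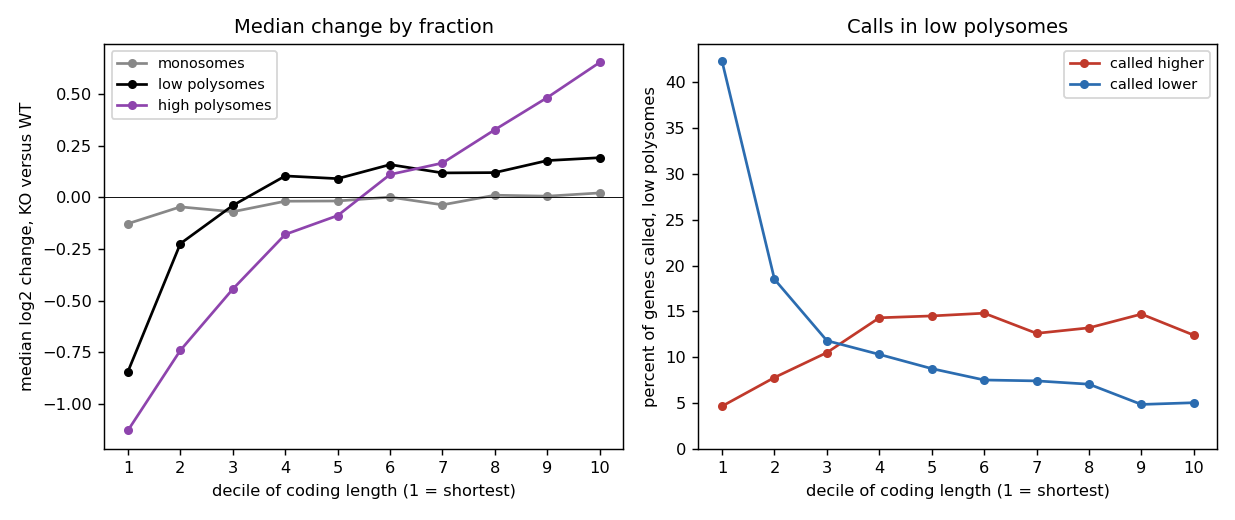
Left, median log2 change of KO versus WT by decile of coding length in monosomes, low polysomes and high polysomes. Right, percent of genes called higher and lower in low polysomes by decile. The shortest decile has 42.3% called lower, and the medians of low polysomes level off near 0.1 to 0.2 from decile 4 on.

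Ribosomal protein and histone genes made up part of that decile. Of 82 cytosolic ribosomal protein genes, 21 (25.6%) were called lower and 1 (1.22%) higher, against 13.6% and 11.4% of all genes. The share called lower in that decile was 42.3%. The ribosomal protein genes had a median of -0.70, and of -1.18 and -1.10 in monosomes and high polysomes. Rps27l, a p53-induced paralog, fell from 1263 ± 75.6 to 229 ± 26.6 CPM (log2 change -2.47, SE 0.11, n = 3). Rps29 (-2.25) and the paralogs Rpl3l (-2.94), known from striated muscle, and Rpl39l (-2.07), known from testis, fell, too. Of 32 replication-dependent histone genes, 12 (37.5%, against 13.6% of all genes) were lower and 0 higher by limma-voom. Without KO replicate 1, 11 were lower. By edgeR 13 and by DESeq2 11 were lower, and 0 were higher by either or at an unadjusted p under 0.05. The linker histone Hist1h1b fell from 227, 176 and 367 CPM to 62.7, 58.6 and 68.0 CPM (-1.95, SE 0.19). Counts of both families are uncertain, because only reads with a single alignment were kept and these genes have near-identical copies or pseudogenes. How fully 3′ end sequencing captures histone messages was not tested, so the histone values describe reads and may not describe message levels. With both families left out, the shortest decile had 472 of 1105 genes called lower (42.7%) and a median of -0.85.

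Of 494 long noncoding RNAs tested, 201 (40.7%) were called lower and 23 (4.66%) higher, against 13.6% and 11.4% of all genes, with a median of -0.79, and 176 and 31 without KO replicate 1. Of processed pseudogenes, 22.1% (65) were called lower and 2.04% (6) higher, with a median of -0.74. Chromosome copy number in the KO and WT lines was not tested, and a difference in it would bear on the values by chromosome that follow. Genes on chromosome 8 had a median log2 change of -0.28 over 709 genes, with 129 (18.2%) called lower and 57 (8.04%) higher, and -0.30 without KO replicate 1. Medians of the other chromosomes with 20 or more genes ran from -0.10 to 0.15. Chromosome 8 had medians of -0.30 in monosomes and -0.41 in high polysomes, and of -0.23, -0.25 and -0.22 in the KO low polysome libraries 1, 2 and 3 taken singly (log2 of CPM + 2 against the WT mean).

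Which genes differed in low polysomes by more or less than in the other fractions was asked with the same fit, by setting the low polysome change against the mean of the monosome and high polysome changes. Of 12851 genes, 57 (0.444%) were called higher and 103 (0.801%) lower in this sense. Without KO replicate 1, 39 (0.303%) were higher and 81 (0.63%) lower, and 94 calls were kept. The higher count rests on single libraries, with 27 genes without WT replicate 2 and 101 without KO replicate 2. Of the 103 lower calls, 90 were of protein-coding genes, and 48 of these were in the shortest decile of coding length, which holds 1182 of the 11766 protein-coding genes.

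The genes named here follow the same rule, 4 in each direction. E330020D12Rik fell by 4.77 in low polysomes and by 1.83 and 2.63 in monosomes and high polysomes (difference -2.54, adjusted p = 0.00217). Cox17, the copper chaperone of cytochrome c oxidase, fell from 190, 195 and 162 CPM to 30.4, 34.3 and 32.6 CPM in low polysomes, a log2 change of -2.48 (SE 0.14) against -0.94 and -1.02 in the other fractions (difference -1.5, adjusted p = 1.89e-06). Gpx2, an intracellular glutathione peroxidase, was at 45.8, 44.9 and 44.3 CPM in WT and at 23.1, 20.8 and 23.9 CPM in KO, a change of -0.99 against 0.81 in monosomes and 0.40 in high polysomes (difference -1.59, adjusted p = 2.27e-05). Pacsin1, a membrane-bending protein, changed by -2.56 against -0.90 and -1.33 (difference -1.44, adjusted p = 0.00715).

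On the higher side, Slc9a3r1, a scaffold protein beneath the plasma membrane, rose from 10.6, 14.2 and 12.04 CPM to 35.7, 33.0 and 42.0 CPM, a change of 1.57 (SE 0.19) against 0.58 and 0.39 (difference 1.09, adjusted p = 0.00299). Eid1, an inhibitor of differentiation, changed by 0.89 against -0.58 and -0.06 (difference 1.21, adjusted p = 0.0106). Etfa, a mitochondrial electron transfer flavoprotein, changed by 0.71 against -0.33 and -0.58 (difference 1.16, adjusted p = 0.00252). Acy1, an aminoacylase, was at 15.3 ± 1.91 CPM in WT and 20.8 ± 1.51 CPM in KO low polysomes (n = 3), a change of 0.43 against -1.15 in monosomes and -0.30 in high polysomes (difference 1.16, adjusted p = 0.00287). The low polysome changes of Eid1 and Etfa alone were under the fold threshold. That of Acy1 passed neither threshold (limma-voom adjusted p = 0.0829), and Acy1 was called lower in monosomes.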

How the data were processed

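The values used are raw counts of 3′ end reads per gene, which the authors made from QuantSeq 3′ FWD libraries. Per the labels and the study's methods, reads were trimmed with cutadapt 1.14, aligned to mm10 with STAR 2.5.3a, kept if they aligned to 1 place, and counted by strand with featureCounts 1.5.3 over GENCODE M14 without ribosomal RNA genes. Molecular identifiers are not mentioned, so PCR copies may be counted, and intervals cover counting error only. Reads near 3′ ends do not grow with transcript length.

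From these deposited counts, genes with at least 3 CPM in at least 3 of the 18 libraries were fitted with limma-voom (limma 3.58.1, edgeR 4.0.16 TMM factors, R 4.3.3), with 1 mean for each of 6 groups and no block. Spike-in entries (92) were left out. Tests were two-sided, adjusted with Benjamini-Hochberg over 12851 genes, and a call needed an adjusted p below 0.05 with a log2 change beyond 1 in either direction. limma and the filter follow the study's methods, the thresholds are those it gave for another comparison, and voom, TMM and the contrast are choices made here. Adjusted p-values in the report come from this fit. It was tested on simulated data before use. Symbols, biotypes, coding lengths and 3′ UTRs came from GENCODE M21 (GRCm38, 1-based coordinates), and miRNAs and promoters from RefSeq.

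Genes named were Dgcr8; the 10 per direction with the largest change among those called with and without KO replicate 1, with a mean count of 50 or more and no overlap between the groups; 4 per direction by that rule for the change against the other fractions; and, of 33 gene lists, key members and up to 4 others called. Other genes named were chosen after their values were seen. The comparison, the gene lists and the rules were chosen with earlier results of these data known. Lists are therefore described by counts and medians, with no test. Listed genes low in WT or in KO pass the filter mainly through the other genotype, so shares of lists that hold them are descriptions. edgeR's quasi-likelihood test, DESeq2 1.42.0, other scalings, filters, weights and sample sets were tried as alternatives.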

Additional observations from a re-analysis of the deposited data

Results flagged for a closer look

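Genes at which the KO to WT change in low polysomes differed from the mean of the monosome and high polysome changes, by the test of that difference in limma-voom, were set apart here. The differences on the log2 scale were -2.54 for E330020D12Rik, -1.59 for Gpx2, -1.5 for Cox17 and -1.44 for Pacsin1. They were 1.21 for Eid1, 1.16 for Etfa, 1.16 for Acy1 and 1.09 for Slc9a3r1. The direction of each was the same without KO replicate 1, since the rule by which they were named required it. The gap test for single outlying samples was not run, since it needs at least 4 samples a group. By another rule, KO replicate 1 stood apart at 14 genes.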

How the results depend on the processing

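Counts of genes called in low polysomes stayed within 1.5 times of 1462 higher and 1754 lower under all alternatives run but 1, the adjusted p without a fold threshold (3349 and 3367). They were 1344 to 1534 higher and 1587 to 1793 lower when 1 low polysome library was left out, and 1491 and 1722 with edgeR. For the low polysome change against the other fractions, leaving out 1 library gave 27 to 101 higher and 76 to 129 lower, no filter on low counts gave 101 higher, DESeq2 gave 32 higher, edgeR without KO replicate 1 (added after the data were seen) gave 34 higher, and no fold threshold gave 453 higher and 442 lower. With the replicate block the counts were 1470 higher and 1742 lower in low polysomes and 71 and 108 for the change against the other fractions. Deviations of same-numbered KO and WT low polysome libraries had correlations of 0.0122, 0.102 and 0.0151. Those of differently numbered libraries ran from -0.0736 to 0.0554. Correlations this weak cannot decide whether gradients were run in pairs, and the main fit did not treat them as pairs. Total counts shifted the median of all genes by -0.0255. Over 182 named genes, 2801 values under the alternatives kept direction and call, 71 lost and 15 gained the call, and 2 turned, both for H19 (0.15 with edgeR, 0.14 with DESeq2), whose counts in KO replicate 1 exceed those of all other low polysome libraries. With 8mer sites in place of any site, genes called lower were 3.24% in place of 6.22%. Of the member counts of gene lists, 124 of 132 stayed within 1.5 times. Of the chromosome medians compared, 10 stayed the same and 10 moved. That of chromosome 8 was -0.28 with all libraries and -0.30 without KO replicate 1. The planned selection of transcripts of 1 genotype (at most 2 or at most 5 counts in the other) found 0 genes, so a weaker rule replaced it. At these depths, genes under about 1 CPM in both groups cannot be compared.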
